A study of Mus musculus with 11 samples.

Results

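The comparison described here set whole ovaries of 24 month old wild-type mice against those of 2 month old wild-type mice, across all genes. It used 7 of the 11 libraries of the study, 4 labelled 2 month and 3 labelled 24 month, chosen by these age labels. The study sequenced messenger RNA of ovaries at 3 ages, which the submitters describe as young, old and past reproduction. The labels gave every animal the genotype WT and the tissue ovary, and gave no strain, housing or cycle stage. The library names carried 22 months where the labels say 24, and 8 weeks where they say 2 months, and the groups are named here by the labels. The labels do not state whether each library was made from a different animal, and p-values here speak only of the spread among these samples, which may be technical.

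The ovary of a young mouse holds follicles at all stages, each an oocyte wrapped in granulosa cells that divide as the follicle grows and that make estradiol from androgens supplied by theca cells. After ovulation the follicle wall turns into a corpus luteum, which makes progesterone from cholesterol. The stock of oocytes is set early in life and is used up with age, while the stroma of the aged mouse ovary is known to gather macrophages, multinucleated giant cells and lymphocytes. In a bulk sample, fewer cells of a type and less RNA per cell cannot be told apart, and each gene level here is a level in the whole organ.

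Total counts of the 7 libraries lay between 26061630 and 33407509. Levels are given as CPM, the count of a gene relative to the library's total after TMM scaling, in the order of the replicate numbers. Ovarian identity was seen in all 7 samples: Foxl2, the transcription factor that marks granulosa and stromal cells of the ovary, was at 138, 228, 171 and 207 CPM at 2 months and at 161, 169 and 205 CPM at 24 months. The 24 month samples were less alike than the 2 month samples. On the first principal component, 53.0% of the variance, the 2 month samples lay between -90.5 and -77.0, and 24 month replicates 1, 2 and 3 at 19.7, 87.8 and 130.1. Replicate 3 thus lay farthest from the young ovaries, and replicate 1 nearest. Markers of the secretory oviduct epithelium, a tissue that touches the ovary, summed to 23.6 to 39.3 CPM at 2 months and to 63.2, 237 and 1065 CPM in the 24 month replicates, and genes of motile cilia summed to 22.7 to 34.7 and to 36.1, 125 and 1055 CPM. Because 24 month replicate 3 carried most of these transcripts, the counts for each group of genes are given with and without it, and the part of such epithelium in the other results was not tested.

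Of 20331 genes tested, 7120 (35.0%) differed between the ages at an adjusted p below 0.05, 3906 (19.2%) higher at 24 months and 3214 (15.8%) lower. The median log2 fold change over all genes tested was 0.03. The change was at least 2-fold for 2728 of the higher and 1233 of the lower genes, and at least 8-fold for 651 and 319. In 8569 genes (42.1%) the samples of the 2 ages did not overlap. Without 24 month replicate 3, 4283 of 20803 genes tested (20.6%) were called, 2475 (11.9%) higher and 1808 (8.69%) lower. Of the 7120 genes, 3999 were called in the same direction in that fit and 0 in the opposite direction. The number of calls was also more than 1.5 times smaller without 2 month replicate 1 (4537) and without 24 month replicate 2 (4656). Of the 256 called genes named here, 208 were called in all 10 fits that left out 1 sample, 33 in 6 to 9 and 15 in 5 or fewer, with the number given beside those 15. A call lost without 24 month replicate 3 may thus be lost without other samples too. With library totals in place of TMM, the split was 5048 higher and 1869 lower, with log2 fold changes higher by 0.185 on average and a median over all genes of 0.22. The counts for each gene list below are to be read beside the shares of all genes with and without 24 month replicate 3.

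A filter kept called genes of established symbol, of at least 5 CPM in either age, and without overlap of the ages. Names of clones and predicted genes, mitochondrial genes and pseudogenes did not count as established. The 12 genes of at least 2-fold rise with the smallest adjusted p under it were Cd44, Gca, Ptpn5, Dcn, Dram1, Nfasc, Mal, St8sia1, Arhgap36, Dlg2, Lgals7 and Gstm1. Cd44 (chr2:102811141-102901665, minus strand in mm10), the cell surface receptor for hyaluronan, was at 16.9, 15.3, 12.5 and 16.0 CPM at 2 months and at 48.0, 48.3 and 50.3 CPM at 24 months. It rose 3.22-fold (log2 1.69, SE 0.11, edgeR adjusted p = 0.00069). Gca, the calcium-binding protein grancalcin, rose by 2.12 on the log2 scale, and Dram1, a lysosomal membrane protein of autophagy, by 2.01. Ptpn5, a phosphatase best known from neurons, was at 0.934 to 1.49 CPM at 2 months and at 13.6 to 14.5 CPM at 24 months. Nfasc, the adhesion protein neurofascin, was at 1.07 to 1.86 and at 12.8 to 22.3 CPM, and Dlg2, a synaptic scaffold, at 0.853 to 1.34 and at 6.31 to 8.05 CPM. All 3 are known from nervous tissue. Separation of the ages was a condition of the filter, so it is not a result for these 12 genes. Mal, a proteolipid of myelin and epithelia, rose by 2.46 (SE 0.22), St8sia1, which makes the ganglioside GD3, by 2.45 (SE 0.20), and Arhgap36 by 2.67 (SE 0.22). Each of the 12 was also called in all 10 fits that left out 1 sample. That is likely for genes chosen by the smallest adjusted p.

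The 12 genes of at least 2-fold fall with the smallest adjusted p came from the same filter, which required that the ages did not overlap. Of these, Lamc3, a laminin chain of basement membranes, was at 77.6, 98.5, 88.3 and 106 CPM at 2 months and 31.0, 34.8 and 42.9 CPM at 24 months. Its log2 fold change was -1.36 (SE 0.14, edgeR adjusted p = 0.0014). Pramef12 fell by 4.10 and Btg4, which clears maternal mRNA in the oocyte, by 3.71. Kif4, a chromosome-bound kinesin, fell by 2.44 and Ncapd2, a condensin subunit, by 1.46. Cables1 was at 78.6 to 105 CPM at 2 months and at 16.6 to 22.4 CPM at 24 months, Mmel1, a membrane endopeptidase, at 114 to 229 and at 17.3 to 20.04 CPM, and Cdh15, a cadherin, at 7.43 to 17.1 and at 0.552 to 0.854 CPM. The other 4 were Carhsp1, Lrrc59, Siah2 and Dnajb1. All 12 were called without 24 month replicate 3, which is likely for genes chosen by the smallest adjusted p.

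The 10 called genes of established symbol with the largest gains in mean CPM were Agt, Dcn, Gas6, Apoe, Igfbp5, Sparcl1, Gstm1, H2-D1, Adh7 and Enpp2. Dcn, the collagen-binding proteoglycan decorin, was at 240.0, 298, 190.1 and 210.3 CPM at 2 months and at 919, 1584 and 1451 CPM at 24 months, a rise of 2.49 (SE 0.22). Apoe, a lipid carrier made by macrophages and steroid-making cells, was at 667 to 756 CPM at 2 months and at 1345 to 1616 CPM at 24 months. Gas6, a ligand for receptors that clear dying cells, was at 599 to 686 and at 1455 to 1911 CPM, and Gstm1, a glutathione transferase, at 290.1 to 353 and at 903 to 1134 CPM. These 4 genes did not overlap between the ages.

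Other large gains were uneven among the old ovaries. Agt, the precursor of angiotensin, was at 79.8, 145, 84.6 and 86.8 CPM at 2 months and at 2154, 1807 and 175 CPM at 24 months. Adh7, an alcohol dehydrogenase that oxidises retinol, was at 10.3, 5.10, 2.76 and 14.8 and at 692, 791 and 138 CPM. Both were thus several times lower in 24 month replicate 3 than in the other 2 old ovaries, and Agt rose by 4.33 without it, against 3.80 with it. Enpp2, the enzyme autotaxin, showed the reverse, with 18.6, 32.6, 16.3 and 32.8 CPM at 2 months and 69.0, 64.8 and 1323 CPM at 24 months. Its rise of 4.27 became 1.43 (edgeR adjusted p = 0.012) without replicate 3. Igfbp5, an IGF-binding protein, was called only with that sample in the fit (log2 1.64, and 1.56 with adjusted p = 0.059 without it).

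The 10 called genes of established symbol with the largest losses in mean CPM held Star, Akr1c18, Scarb1, Fdx1 and Ptgfr, given with the steroid genes, and Lgmn, Ephx2, Sparc, Scd2 and Idh1. Scd2, a fatty acid desaturase, was at 3329, 3036, 3762 and 3113 CPM at 2 months and at 1846, 1163 and 964 CPM at 24 months, and Idh1, an isocitrate dehydrogenase that supplies NADPH, at 2349, 2117, 2326 and 2282 and at 1599, 917 and 551 CPM. Every old ovary lay below every young one for both, and 24 month replicate 1 was the closest to the young. Idh1 was not called without 24 month replicate 2. Lgmn, the lysosomal protease legumain, fell by 2.87 (SE 0.70) and Ephx2, an epoxide hydrolase, by 2.60 (SE 0.56).

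**Figure D1:**
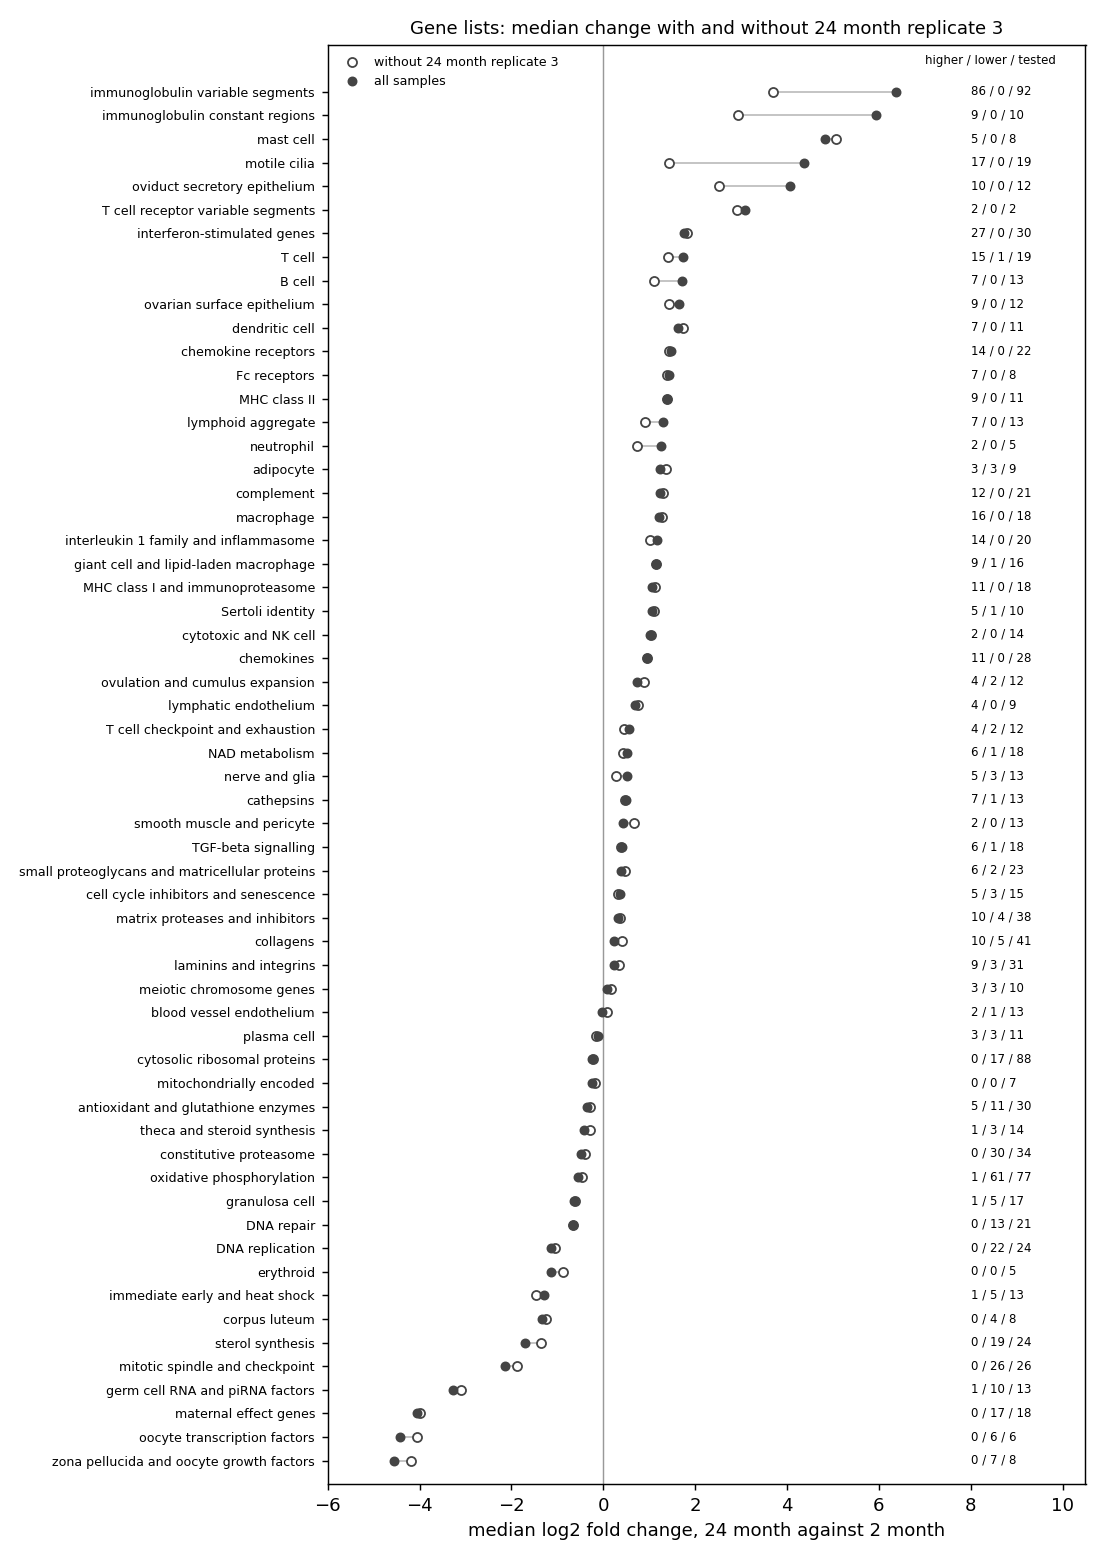
Median log2 fold change of the tested members of each gene list at 24 months against 2 months, with all samples (filled) and without 24 month replicate 3 (open), with the number called higher, called lower and tested at the right. The egg coat, oocyte transcription factor, maternal effect, mitotic spindle and DNA replication lists lie left of 0 with either set of samples, meiotic chromosome genes and cell cycle inhibitors lie just right of 0, while the medians for immunoglobulin, oviduct and cilia lists move towards 0 without replicate 3.

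Oocyte genes fell together. Of 8 genes of the egg coat and of oocyte growth factors, 7 fell and none rose, with and without 24 month replicate 3, and the median log2 fold change was -4.56 (15.8% of all genes tested fell). Zp3, the egg coat protein that binds sperm, was at 47.4, 59.9, 24.8 and 42.2 CPM at 2 months and at 4.40, 0.711 and 0.989 CPM at 24 months. Zp2, another coat protein, was at 92.8, 112, 52.4 and 87.5 and at 6.38, 0.882 and 1.54 CPM. The order of the old ovaries was alike for both, with 24 month replicate 1 above replicates 2 and 3 and all 3 far below the young, and among the young 2 month replicate 3 was lowest. Zp3 fell 21.8-fold (log2 -4.45, SE 0.66, edgeR adjusted p = 0.0028) and Zp2 29.9-fold. Fgf8, by which oocytes drive glycolysis in cumulus cells, fell by 4.91 from a low level. The member that was not called was Kit, the oocyte receptor for Kit ligand that mast cells and theca cells also carry, at 42.3 to 54.0 CPM at 2 months and 36.5 to 68.4 CPM at 24 months.

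All 6 tested transcription factors of the oocyte fell, and all 6 did so without 24 month replicate 3 (median -4.43). Figla, which switches on the zona genes, was at 1.17, 0.994, 0.893 and 0.670 CPM at 2 months and at 0.0746, 0.0285 and 0 CPM at 24 months. Sohlh1, a factor of primordial follicles, fell by 3.78 (SE 0.46). Taf4b, which is also made by granulosa cells, was at 22.7 to 30.9 CPM at 2 months and 10.4 to 12.8 CPM at 24 months and so kept more of its level than the other 2.

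Of the 18 maternal effect genes, whose products the oocyte stores for the embryo, 17 fell and none rose. Without 24 month replicate 3 there were also 17, with Tle6 lost and Oog1 gained. Padi6, needed for the lattices of the egg cytoplasm, was the most abundant apart from Zbed3 in the young ovary, at 126, 166, 75.0 and 122 CPM, and was at 9.78, 1.37 and 2.27 CPM in the old. Nlrp14 was at 102, 111, 43.1 and 89.9 and at 9.52, 0.996 and 2.24 CPM. In both, the first old ovary held several times the transcript of the other 2. Nlrp5, Ooep, Khdc3 and Tle6 belong to the complex beneath the egg membrane. Nlrp5 fell by 4.86 (SE 0.75), Ooep fell by 4.44 (SE 0.65) and Khdc3 by 3.22 (SE 0.56). Tle6 fell by 0.90 (SE 0.29), a call lost without replicate 3 (adjusted p = 0.13) and kept in 4 of 10 fits that left out 1 sample. The other NLRP genes Nlrp2, Nlrp4f and Nlrp9b fell by 4.35, 3.84 and 4.00. Stored chromatin factors fell as well, Npm2 by 3.79, Dppa3 by 4.70 and the egg linker histone H1foo by 4.10. Zar1, which acts on the translation of stored mRNA, fell by 4.51, Mos, a kinase of meiotic arrest, fell by 4.46, and Bcl2l10 fell by 3.59. Zbed3 kept the most of its level among the called genes other than Tle6, with 143, 185, 103 and 134 CPM at 2 months and 52.5, 36.6 and 37.5 CPM at 24 months. Oog1 was not called with all samples (log2 -1.98, SE 0.99, adjusted p = 0.14): it was at 0.149, 0.0285 and 1.57 CPM in the old ovaries, and the third lay within the young range of 1.02 to 3.95 CPM. Without that sample its adjusted p was 0.012.

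The promoter of Ooep is shown because it was the member with the smallest adjusted p that held the motif searched among maternal effect genes. The motif was TAATTA or TAATTG on either strand, the core bound by the homeodomain factor NOBOX, and its match stands in capitals. Promoters are windows of 250 bases before and 50 after a start site, from RefSeq on GRCm38.p6, 5′ to 3′ on the strand of the gene. A match is a description of letters and not of binding, and where capitals differ from the letters searched the match is on the opposite strand.
Ooep (chr9:78378539-78378838, minus strand): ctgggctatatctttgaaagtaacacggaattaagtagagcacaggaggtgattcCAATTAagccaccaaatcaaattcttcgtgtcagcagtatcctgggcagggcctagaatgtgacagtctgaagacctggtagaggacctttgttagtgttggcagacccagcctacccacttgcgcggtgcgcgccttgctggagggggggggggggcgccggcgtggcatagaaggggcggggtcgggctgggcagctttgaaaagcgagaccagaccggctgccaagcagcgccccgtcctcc
The motif stood in 4 of 16 windows of maternal effect genes (25.0%) and in 4073 of all 32851 windows (12.4%). Of the zona and growth factor genes, 1 of 6 windows held it.

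Among 13 germ cell RNA and piRNA factors, 10 fell and 1 rose, as many as without 24 month replicate 3. Ddx4, the germ cell RNA helicase, was at 4.31, 5.66, 3.05 and 4.05 CPM at 2 months and 0.597, 0.398 and 0.320 CPM at 24 months. Ybx2, which packages stored mRNA, fell by 3.41, and the piRNA helicase Mov10l1 by 6.23 (SE 0.84) to no more than 0.0373 CPM. Meiotic chromosome genes were mixed, with 3 higher and 3 lower of 10 tested (2 and 3 without 24 month replicate 3). Smc1b, a meiotic cohesin, fell by 2.54, whereas the cohesin Rec8 rose by 3.16 (SE 0.66), with 2.28, 8.93 and 1.02 CPM in the old ovaries against 0.345 to 0.609 CPM.

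Of 17 granulosa cell genes tested, 5 fell and 1 rose, in the fits with and without 24 month replicate 3, and the median was -0.63. With all samples, this was a share near the 35.0% of all genes tested that were called (20.6% without that sample). The 5 that fell were Amh, Fshr, Esr2, Nr5a2 and Serpine2. Amh, the hormone of small growing follicles, was at 99.6, 175, 66.6 and 106 CPM at 2 months and at 11.8, 7.23 and 28.8 CPM at 24 months, and fell by 2.81 (SE 0.53, edgeR adjusted p = 0.0056). Fshr, the receptor for follicle-stimulating hormone, was at 45.5, 36.0, 23.6 and 38.0 and at 8.55, 6.999 and 15.1 CPM. For both genes the old ovaries lay below the young without overlap, with replicate 2 lowest. Esr2, the main estrogen receptor of granulosa cells, fell by 1.75 (SE 0.24), the nuclear receptor Nr5a2 by 1.50 (SE 0.36) and the protease inhibitor Serpine2 by 1.04 (SE 0.21). The gene that rose was Gatm, the first enzyme of creatine synthesis, by 1.86 (SE 0.36).

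For the activin, inhibin and aromatase genes of larger follicles the old ovaries differed widely from each other. Inhba, the activin and inhibin beta A subunit, was at 495, 447, 455 and 507 CPM at 2 months and at 925, 37.4 and 703 CPM at 24 months. Inhbb was at 558, 537, 435 and 659.7 and at 499, 19.2 and 139 CPM, and Cyp19a1, the aromatase that makes estradiol, at 30.6, 34.2, 18.1 and 31.5 and at 67.9, 3.30 and 66.2 CPM. The second old ovary was by far the lowest in all 3, while the first held the young level or more and the third differed by gene. Fst, the activin antagonist follistatin, was at 182, 19.3 and 125 CPM in the old ovaries and Nap1l5 at 178, 7.74 and 46.1 CPM, again lowest in the second. None of these 5 was called (adjusted p from 0.21 for Inhbb to 0.84 for Inhba). Inha, the shared inhibin subunit, was at 1544 to 2389.8 CPM at 2 months and at 2143, 1096 and 1251 CPM at 24 months, and the gap junction gene Gja1 at 1889 to 2206 and at 2075, 627 and 1354 CPM, neither called. Without 24 month replicate 1, Inhbb, Nap1l5 and Gja1 were called lower (log2 -2.78, -2.85 and -1.07). Replicate 1 was the highest old sample for each, so lower values without it follow from the choice of sample. Hsd17b1 (log2 -0.82, adjusted p = 0.17), Kctd14 (1.20, 0.20), Amhr2 (0.82, 0.077) and Foxl2 (-0.06, 0.82) were not called.

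**Figure D2:**
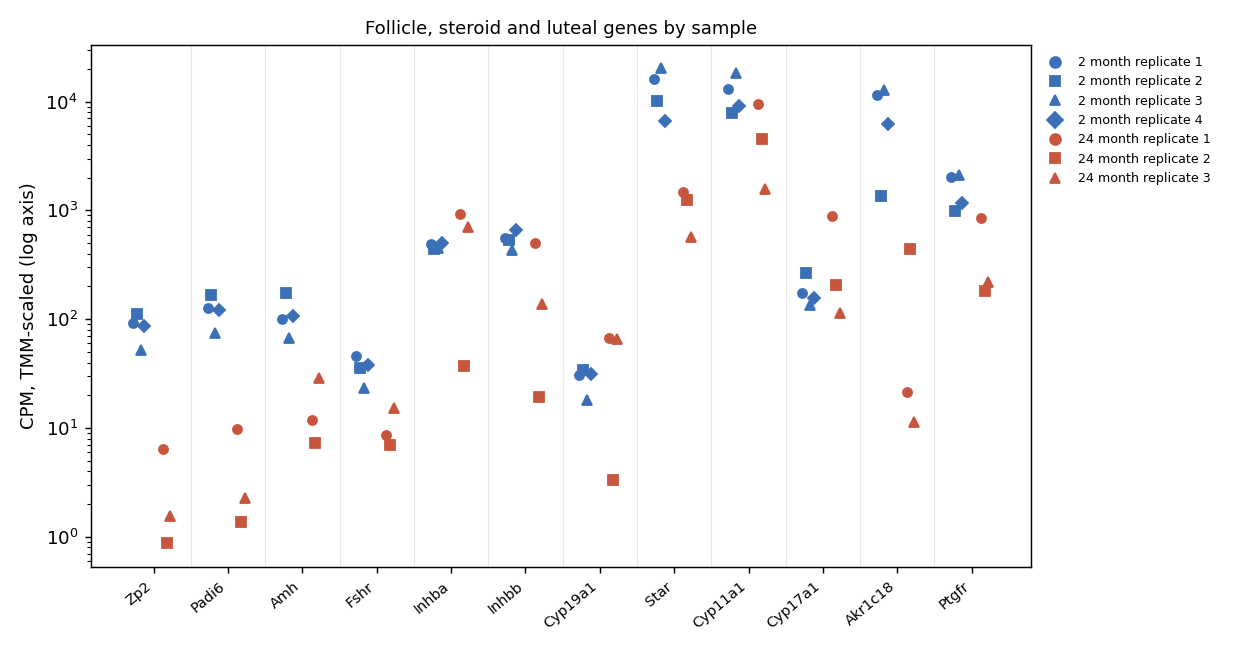
CPM on a log axis of 12 follicle, steroid and luteal genes in each sample, with 2 month replicates 1 to 4 and 24 month replicates 1 to 3 as points. Zp2, Amh, Fshr and Star are lower in every old ovary, whereas Inhba, Inhbb and Cyp19a1 are lowest in 24 month replicate 2, and in replicate 1 Inhbb is within the young range and Inhba and Cyp19a1 are above it.

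Of the genes that bring cholesterol to the steroid pathway, Star and Scarb1 fell, while the enzymes Cyp11a1 and Hsd3b1 were not called, a contrast that was not tested. Star, which carries cholesterol into mitochondria, lies at chr8:25806555-25815982, plus strand in mm10 and was at 16120, 10096, 20211 and 6627 CPM at 2 months and at 1475, 1254 and 570.0 CPM at 24 months. It fell 12.1-fold (log2 -3.59, SE 0.50, edgeR adjusted p = 0.0022), with all old ovaries far below the young. Scarb1, the receptor for cholesterol from lipoproteins, fell by 1.78 and Fdx1, the electron carrier of the side chain cleavage enzyme, by 1.60 (SE 0.43). Scarb1 was not called without 24 month replicate 3 (adjusted p = 0.086), neither Scarb1 nor Fdx1 without 24 month replicate 2, and Scarb1 also not without 2 month replicate 1 or 3. Cyp11a1, the side chain cleavage enzyme itself, was at 13064, 7927, 18260 and 9177 CPM at 2 months and at 9463, 4562 and 1558 CPM at 24 months and was not called (adjusted p = 0.11). Its first old sample lay within the young range, and 24 month replicate 3 was the lowest of the 7. Hsd3b1, the next enzyme, was at 7684 to 14583 CPM at 2 months and at 9221, 5582 and 2782 CPM at 24 months, with adjusted p = 0.18. Without 24 month replicate 1, both were called lower (log2 -1.96 and -1.18). That sample was the old ovary nearest to the young, so lower values without it follow from the choice of sample.

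In all, 3 of the 14 theca and steroid genes fell and 1 rose (median -0.42), and 2 fell and 2 rose without 24 month replicate 3. With all samples, calls were no more frequent in this list than among all genes tested (35.0%). Cyp17a1, the enzyme that commits steroids to androgens, was at 172, 265, 134 and 156 CPM at 2 months and at 884, 205 and 114 CPM at 24 months. Replicate 1 held several times the level of any other sample, and the gene was not called (log2 1.14, SE 0.68). Nr5a1, the factor that drives steroid genes, was at 492, 494 and 232 CPM in the old ovaries against 259 to 335 CPM. It was called higher only without 24 month replicate 3 (log2 0.80, adjusted p = 0.015, against 0.14 with all samples). Gli1, a target of hedgehog signals from granulosa cells, rose by 0.73 (SE 0.22), a call lost without 24 month replicate 2 or 2 month replicate 1, 3 or 4, while the hedgehog receptor Ptch1 (-0.19) and the antagonist Hhip (-0.36) were not called. Lhcgr, the receptor for luteinising hormone, was at 455 to 878 and at 634, 209.8 and 534 CPM. The electron donor Fdxr (-0.48) and the hormone gene Insl3 (0.57), the latter at no more than 1.22 CPM in the old ovaries, were not called. Of these genes, 9 had a RefSeq promoter, and 0 of 9 held the letters AAGGTCA on either strand, against 4.72% of all windows.

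Of 8 luteal genes, 4 fell and none rose, and 1 fell without 24 month replicate 3. The share of all genes tested that fell was 15.8%, and 8.69% without that sample, to which 1 of 8 is near. Akr1c18, which breaks down progesterone in the regressing corpus luteum, had the largest fall in that list, but it was uneven at both ages, with 11573, 1358, 12666 and 6284 CPM at 2 months and 21.6, 447 and 11.4 CPM at 24 months (log2 -5.64, SE 1.83, edgeR adjusted p = 0.039). Ptgfr, the prostaglandin receptor that triggers luteal regression, was at 2045, 979, 2128 and 1176 and at 849, 181 and 219.7 CPM. Among the young, replicate 2 was lowest in both genes and replicate 3 highest. Neither gene was called without 24 month replicate 3 (adjusted p = 0.091 and 0.099), and Akr1c18 was called in 3 and Ptgfr in 6 of the 10 fits that left out 1 sample. Parm1 fell by 1.67 (SE 0.26) and Cited4 by 1.30 (SE 0.41), of which Parm1 was called with and without that sample and Cited4 in 5 of the 10 fits. Of the 12 genes tied to ovulation, 4 rose and 2 fell (3 and 1 without 24 month replicate 3). Among all genes tested 35.0% were called, and 20.6% without that sample. Pgr, the progesterone receptor, rose by 2.48 (SE 0.53) and Btc, an EGF-like factor, by 1.34 (SE 0.31). Star, given above and also in this list, was 1 of the 2 that fell. The list's sum, which was mostly Star, was 6769 to 20378 CPM at 2 months and 677 to 1590 CPM at 24 months.

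Cholesterol synthesis genes fell from early to late steps of the pathway. Of 24 tested, 19 fell and none rose, with a median of -1.71, and 11 fell without 24 month replicate 3 (median -1.35). Dhcr7, the last step to cholesterol, was at 977, 918, 1576 and 654 CPM at 2 months and at 255, 97.8 and 91.1 CPM at 24 months. The old ovaries all lay below the young ones, with replicate 1 highest and replicate 3 lowest among them. Dhcr7 fell by 2.80 (SE 0.45, edgeR adjusted p = 0.0033). Of the early enzymes, Hmgcs1 fell by 1.59, Acat2 by 1.78, Mvk by 1.30, Pmvk by 1.89, Mvd by 2.21, Idi1 by 1.48 and Fdps by 2.37. Of the enzymes from squalene on, Fdft1 fell by 1.25, Sqle by 1.70, Lss by 1.72, Cyp51 by 2.49, Msmo1 by 1.72, Nsdhl by 2.02, Tm7sf2 by 2.09 and Ebp by 1.32. The feedback protein gene Insig1 fell by 1.61.

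Without 24 month replicate 3 the calls lost included Hmgcs1, Idi1, Sqle, Lss, Msmo1, Tm7sf2 and Insig1. Of these, Idi1 and Insig1 were called in 3 and Hmgcs1 in 5 of the 10 fits that left out 1 sample. The 5 genes not called with all samples included the regulator Srebf2 (log2 -0.40), Sc5d (-0.70) and the sterol carrier Stard4 (-1.28, adjusted p = 0.054). The list summed to 9142, 7275, 12240 and 6394 CPM at 2 months and to 4567, 2121 and 1526 CPM at 24 months. The young replicates 1 and 3, which had the most Akr1c18, also had the highest sums.

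The sterol response element was searched as TCACNCCAC or TCACNCCAT on either strand. It stood in 3 of 19 windows of these genes (15.8%) and in 651 of all 32851 (1.98%). The promoter of Msmo1, a C4 sterol demethylase, was the one of the called members with the smallest adjusted p that held it, and its match is in capitals.
Msmo1 (chr8:64733529-64733828, minus strand): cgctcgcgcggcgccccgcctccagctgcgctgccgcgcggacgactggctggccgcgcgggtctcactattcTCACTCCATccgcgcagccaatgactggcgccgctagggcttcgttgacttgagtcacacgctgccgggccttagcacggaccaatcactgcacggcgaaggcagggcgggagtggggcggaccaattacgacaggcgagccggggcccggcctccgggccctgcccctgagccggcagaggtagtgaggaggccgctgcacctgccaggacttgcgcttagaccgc

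Genes of cell division fell. All 26 spindle and checkpoint genes tested were called lower, 25 of 26 without 24 month replicate 3, and the median was -2.15. Top2a, the topoisomerase of dividing cells, was at 223, 210.1, 113 and 170.0 CPM at 2 months and at 59.5, 28.6 and 16.4 CPM at 24 months. Cdk1, the kinase that starts mitosis, was at 54.9, 54.5, 28.7 and 44.4 and at 12.9, 11.4 and 7.44 CPM. The old ovaries lay below all young ones in both genes. Among the young, replicate 3 was the lowest, as for the oocyte genes. Top2a fell by 2.36 (SE 0.44, edgeR adjusted p = 0.0055), Cdk1 by 2.11, the spindle motor Kif11 by 2.03 and the kinetochore motor Cenpe by 2.18.

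Of 24 DNA replication genes, 22 fell and none rose (15 without 24 month replicate 3, and 16 with library totals as the scaling). Mcm6, a subunit of the replicative helicase, was at 126, 131, 71.2 and 98.9 CPM at 2 months and at 51.0, 36.7 and 46.3 CPM at 24 months. Cdc45, which activates that helicase, fell by 1.94 and Rrm1, a subunit of ribonucleotide reductase, by 1.01. Of 21 DNA repair genes, 13 fell and none rose, and 8 fell without 24 month replicate 3. Brca1 was at 33.7, 33.6, 16.6 and 24.9 CPM at 2 months and at 7.99, 4.55 and 4.04 CPM at 24 months. It fell by 2.30 (SE 0.32) and Fanci by 2.23. Rad50, a sensor of DNA breaks, was the most abundant of the list and was not called (log2 -0.22, adjusted p = 0.17).

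The motifs of cell cycle genes were searched in both lists. The CHR element, TTTGAA or TTCGAA on either strand, stood in 19 of 23 windows of mitotic genes (82.6%) and in 6316 of all 32851 (19.2%). The E2F element, searched as TTTGGCGC, TTTCCCGC, TTTCGCGC or TTTGCCGC, stood in 8 of 22 windows of replication genes (36.4%) and in 744 of all (2.26%). Kif11 and Mcm6 had the smallest adjusted p among the members with a match. In Kif11 the match begins 19 bases before the start, and in Mcm6 2 overlapping matches and another stand upstream of the start.
Kif11 (chr19:37376132-37376431, plus strand): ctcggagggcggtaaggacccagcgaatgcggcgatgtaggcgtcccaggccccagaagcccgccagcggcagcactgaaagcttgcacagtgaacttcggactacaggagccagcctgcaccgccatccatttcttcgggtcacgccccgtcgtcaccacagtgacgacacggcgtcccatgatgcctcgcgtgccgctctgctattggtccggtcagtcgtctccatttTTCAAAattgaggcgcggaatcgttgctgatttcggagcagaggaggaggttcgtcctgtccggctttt
Mcm6 (chr1:128359656-128359955, minus strand): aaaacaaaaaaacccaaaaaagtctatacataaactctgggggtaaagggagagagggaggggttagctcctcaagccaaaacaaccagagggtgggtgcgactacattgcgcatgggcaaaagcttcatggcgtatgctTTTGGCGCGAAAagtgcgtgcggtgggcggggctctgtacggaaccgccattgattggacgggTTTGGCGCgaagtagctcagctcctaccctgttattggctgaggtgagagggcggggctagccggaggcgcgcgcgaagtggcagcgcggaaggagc

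Of 15 cell cycle inhibitors and senescence markers, 5 rose and 3 fell, and 3 rose and none fell without 24 month replicate 3. Of all genes tested, 35.0% were called with all samples. Without that sample 20.6% were, and the share of this list was near it. Cdkn1c, an inhibitor of cyclin-dependent kinases, rose by 1.26 (SE 0.30) and Gdf15, a stress-induced cytokine, by 1.37 (SE 0.31). Lmnb1, a lamin lost in senescent cells and higher in dividing ones, fell by 0.90 with all samples and was not called without replicate 3 (adjusted p = 0.052).

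**Figure D3:**
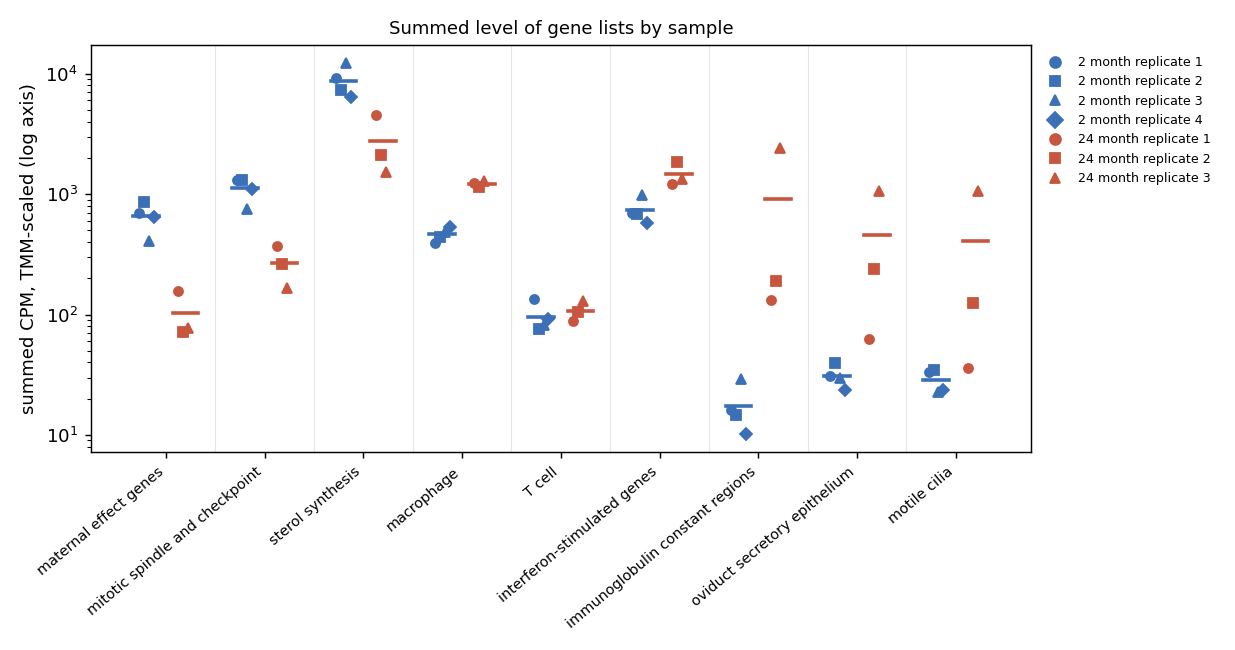
Summed CPM on a log axis of 9 gene lists in each sample, with the mean of each age as a bar. Maternal effect, mitotic and sterol sums are lower and macrophage and interferon sums higher in all 3 old ovaries, T cell sums overlap, and immunoglobulin, oviduct and cilia sums are highest in 24 month replicate 3.

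Macrophage genes rose in all 3 old ovaries. Of 18 tested, 16 rose and none fell, against 19.2% of all genes tested, and 13 rose without 24 month replicate 3. Csf1r, the receptor on which macrophages depend, was at 41.0, 42.2, 48.1 and 47.6 CPM at 2 months and at 86.8, 119 and 93.7 CPM at 24 months. Its ligand Csf1 was at 20.1, 19.6, 24.3 and 22.9 and at 53.9, 45.6 and 51.6 CPM. No old sample overlapped a young one in either gene (log2 1.16, SE 0.12 for Csf1r and 1.21, SE 0.12 for Csf1). Lyz2, lysozyme, was at 91.9, 94.1, 94.6 and 162 CPM at 2 months and at 390.3, 321 and 517 CPM at 24 months, the highest level in the list. Siglec1, a sialic acid receptor of tissue macrophages, rose by 2.27 (SE 0.28, edgeR adjusted p = 0.0019), the most of the list. The complement genes C1qa, C1qb and C1qc, made by macrophages, rose by 1.31, 1.11 and 1.18. Cx3cr1 rose by 1.32, Cd68 by 1.52, Fcgr1 by 1.54, Aif1 by 1.21, Adgre1 by 0.93 and Mrc1 by 0.70. Mertk, Cd163 and Itgam rose with all samples (by 0.74, 1.77 and 1.44) and were not called without replicate 3. Mertk was called in each of the other 9 fits that left out 1 sample, but Cd163 and Itgam in 2 of 10 each. Msr1 (0.99, adjusted p = 0.053) and Timd4, a marker of long-lived resident macrophages (0.77, 0.23), were not called.

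Of 16 genes of giant and lipid-laden macrophages, 9 rose and 1 fell (7 and 0 without 24 month replicate 3). Gpnmb, a glycoprotein of lysosome-rich macrophages, was at 15.9, 19.4, 12.1 and 29.8 CPM at 2 months and at 149.9, 101 and 398 CPM at 24 months, and rose 11.2-fold. Atp6v0d2, a proton pump subunit of osteoclasts and fused macrophages, rose by 2.30 (SE 0.39), and Fabp4, a fatty acid carrier of macrophages and fat cells, by 3.69 (SE 0.50). Of 13 cathepsins, lysosomal proteases, 7 rose and 1 fell (4 and 1 without 24 month replicate 3). Ctss, the cathepsin of antigen-presenting cells, was at 33.1, 37.4, 43.7 and 53.3 CPM at 2 months and at 187, 152 and 259.8 CPM at 24 months, Ctsc rose by 1.21 and Ctsh by 0.87. Of 11 dendritic cell genes 7 rose, with and without replicate 3, among them Xcr1, the chemokine receptor of cross-presenting cells, by 2.39, and Clec10a by 1.62.

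T cell receptor genes rose from a low level. Of 19 T cell genes, 15 rose and 1 fell, and 8 rose and none fell without 24 month replicate 3. Cd3e, a chain of the receptor complex, was at 0.448, 0.404, 0.690 and 0.457 CPM at 2 months and at 2.31, 4.13 and 8.20 CPM at 24 months. Cd3g was at 0.724, 0.497, 0.975 and 0.335 and at 2.99, 5.35 and 13.2 CPM. In both the old ovaries lay above all young ones and replicate 3 was highest. Cd3e rose by 3.29 (SE 0.42, edgeR adjusted p = 0.0021), Cd3g by 3.51, Cd3d by 3.32, Cd247 by 2.43, Trbc1 by 2.09 and Trbc2 by 3.18. The costimulator Icos rose by 2.15. Called with all samples and not without replicate 3 were Cd4 (1.45), Cd8a (1.63), Lck (0.96), Zap70 (1.48), Cd2 (1.74), Cd6 (1.75) and Trac (0.88), of which Cd8a and Trac were called in 3 of the 10 fits that left out 1 sample. Cd5 (1.24), Cd8b1 (0.50) and Tcf7 (0.18) were not called.

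Cd28, the T cell costimulator, was the exception in the list. It was at 81.4, 8.08, 28.9 and 20.7 CPM at 2 months and at 2.20, 2.28 and 1.83 CPM at 24 months, and fell by 4.04 (SE 1.16, edgeR adjusted p = 0.025), a call lost without 24 month replicate 3 (adjusted p = 0.078) and kept in 6 of 10 fits that left out 1 sample. Its young levels exceeded those of Cd3e many times over. With the abundant Tcf7, also made by other cells, it set most of the list's sum, which was 75.6 to 134 CPM at 2 months and 88.7 to 129 CPM at 24 months and so overlapped between the ages. Entpd1, the ectonucleotidase CD39, also fell, from 539.7, 156, 389.9 and 362 to 165, 154 and 134 CPM. In both genes the first young ovary was highest and the second lowest, and the lowest young sample of Entpd1 lay below the highest old one. Entpd1 was not called without replicate 3. Pdcd1, the checkpoint receptor PD-1, named here after its value was seen, fell by 1.38 (SE 0.32). Of the other checkpoint genes, Cd274, which encodes PD-L1, rose by 2.36, Lag3 by 1.30 and Tox by 2.08. Of 14 genes of NK and cytotoxic cells, 2 rose with all samples and 4 without 24 month replicate 3. With all samples the share was no more than the 19.2% of all genes tested that rose. The 2 were Eomes, a T-box factor (log2 3.65), and Tbx21, another (1.21), while Nkg7 (1.19, adjusted p = 0.052) and Ccl5 (1.03, 0.20) were not called.

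Antibody genes were highly uneven among the old ovaries. The constant regions summed to 16.2, 14.5, 29.2 and 10.3 CPM at 2 months and to 131, 189 and 2396 CPM at 24 months. All 3 old ovaries lay above all young ones, and the third held over 10 times the sum of either other old ovary. Of 10 constant regions tested, 9 rose, and 6 without 24 month replicate 3. Igkc, the kappa light chain, was at 4.90, 3.42, 9.38 and 1.55 CPM at 2 months and at 55.4, 83.6 and 1027 CPM at 24 months. Ighg2c rose by 9.27 (SE 1.60, edgeR adjusted p = 0.0044) with all samples and by 5.99 without replicate 3, Ighg2b by 7.46 and 4.60, Ighg3 by 6.64 and 6.02, Igha by 5.51 and 2.43, and Ighm by 2.90 and 2.35. Ighg1 (6.85), Iglc2 (4.08) and Ighd (1.69) were called with all samples only, and Iglc1 was not called (4.31, adjusted p = 0.12). Fitted folds of genes near 0 in the young depend on the prior count of the fit.

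Of 348 variable segments in the table, 92 passed the count filter. All segments together summed to 0.822 to 5.40 CPM in the young samples, so those 92 passed mainly through the older samples. Of the 92, 86 rose and none fell, and 29 rose without 24 month replicate 3. The filter itself favours that direction, so these counts are not a test of it. Igkv3-7 was at 0, 0, 0 and 0 CPM at 2 months and at 0.0373, 0.484 and 20.9 CPM at 24 months, and Igkv12-98 at 0, 0, 0 and 0 and at 0.224, 0.0285 and 17.8 CPM. Nearly all transcripts of both stood in the third old ovary, and neither was called without it (Igkv3-7 was called in 4 and Igkv12-98 in 3 of 10 fits that left out 1 sample). Reads of variable segments can be shared between near-identical genes, so that the level of a single segment is uncertain. Jchain, which joins secreted antibodies, was at 0.965, 1.37, 2.72 and 0.548 CPM at 2 months and at 13.4, 17.2 and 193 CPM at 24 months. Of 13 B cell genes, 7 rose and 2 did so without 24 month replicate 3, against 19.2% and 11.9% of all genes tested. Among the 7 was Blk (log2 4.32). Of 11 plasma cell genes 3 rose and 3 fell, as many as without that sample. Irf4, which drives plasma cell fate, rose by 2.28, and Sdc1, a proteoglycan of plasma cells and of epithelia, was at 442 to 622 CPM at 2 months and 85.5 to 229 CPM at 24 months and fell, as did Derl3, a factor of protein export from the endoplasmic reticulum, by 2.38.

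MHC genes of class I and class II rose. Of 18 class I and immunoproteasome genes 11 rose and none fell (10 without 24 month replicate 3), and of 11 class II genes 9 rose and none fell (7 without it). H2-D1 (chr17:35262730-35267499, plus strand in mm10), a classical class I chain, was at 41.0, 39.8, 76.2 and 36.2 CPM at 2 months and at 487, 500.4 and 872 CPM at 24 months, and rose 12.8-fold. B2m, the shared light chain, was at 329.6, 244, 489 and 200.2 and at 635, 758 and 638 CPM. B2m, on which H2-D1 depends to reach the cell surface, rose by 1.10 (SE 0.28, edgeR adjusted p = 0.015), a call lost without 24 month replicate 2. The immunoproteasome subunits Psmb8 and Psmb9 rose by 1.43 and 1.56, and H2-Q6 by 1.75. Of class II, H2-Aa rose by 1.46 (SE 0.25), the invariant chain Cd74 by 1.27 (SE 0.30), and H2-DMa and H2-DMb2, which load peptides, by 1.35 and 2.21.

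Some MHC genes differed between samples of the same age, and they are named after their values were seen. H2-Ea-ps was at 0, 0.0311, 29.9 and 0 CPM at 2 months and at 2.05, 0.967 and 4.54 CPM at 24 months, with nearly all transcripts of the young in replicate 3. H2-Eb1 was at 49.1, 41.0, 86.9 and 38.5 and at 84.9, 70.5 and 5.73 CPM, and H2-T22 at 38.9, 31.3, 51.5 and 32.9 and at 58.0, 40.3 and 6.78 CPM, each lowest in the third old ovary. None of these 3 was called. H2-Q7, of the class I Qa region, was at 0.345, 0.280, 1.26 and 0.365 CPM at 2 months and at 9.29, 8.45 and 19.2 CPM at 24 months, higher in every old ovary. H2 alleles differ between mouse strains, and the labels name no strain. Counts of H2 genes against 1 reference genome, those of H2-D1 among them, can thus differ by allele, which was not tested.

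**Figure D4:**
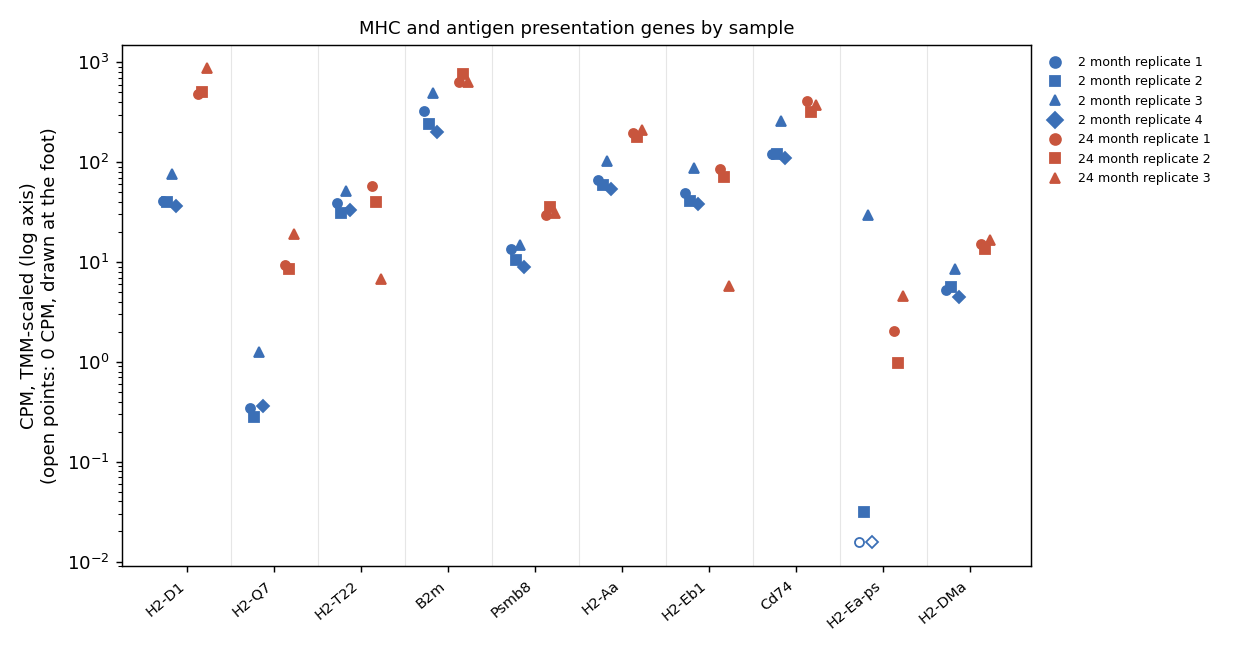
CPM on a log axis of 10 MHC and antigen presentation genes in each sample. H2-D1, H2-Q7, H2-Aa, Cd74, B2m and Psmb8 are higher in every old ovary than in any young one, while H2-Ea-ps stands high in 2 month replicate 3 and H2-Eb1 and H2-T22 stand low in 24 month replicate 3.

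Interferon-stimulated genes rose widely. Of 30 tested, 27 rose and none fell, 24 without 24 month replicate 3, with a median of 1.75. Rsad2, the antiviral protein viperin, was at 1.45, 1.52, 4.02 and 1.52 CPM at 2 months and at 37.7, 35.6 and 21.2 CPM at 24 months. Gbp2, a guanylate-binding protein induced by interferon gamma, was at 68.3, 60.6, 82.2 and 68.2 and at 173, 175 and 209 CPM. The old samples lay above the young in both, with replicate 3 highest for Gbp2 and lowest of the old for Rsad2. Gbp2 rose by 1.41 (SE 0.23, edgeR adjusted p = 0.0036), Rsad2 by 3.90 (SE 0.66) and the transcription factor Irf1 by 0.67 (SE 0.09). Bst2, a virus tether, was the most abundant of the list and was not called (log2 -0.56, adjusted p = 0.080). The list summed to 691, 689.5, 991 and 579 CPM at 2 months and to 1223, 1859 and 1325 CPM at 24 months, highest in the second old ovary.

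The core of the interferon response element was searched as GAAANNGAA on either strand. It stood in 14 of 26 windows of interferon-stimulated genes (53.8%), in 5 of 18 windows of the class I list (27.8%) and in 2812 of all 32851 (8.56%). Gbp2 and B2m had the smallest adjusted p among the members with a match in their list. 
Gbp2 (chr3:142620413-142620712, plus strand): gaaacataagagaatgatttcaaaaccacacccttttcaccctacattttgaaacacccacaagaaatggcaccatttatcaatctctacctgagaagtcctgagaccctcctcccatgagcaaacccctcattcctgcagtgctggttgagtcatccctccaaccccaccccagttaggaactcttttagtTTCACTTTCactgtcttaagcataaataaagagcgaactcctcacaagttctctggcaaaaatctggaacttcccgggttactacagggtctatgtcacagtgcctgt
B2m (chr2:122147437-122147736, plus strand): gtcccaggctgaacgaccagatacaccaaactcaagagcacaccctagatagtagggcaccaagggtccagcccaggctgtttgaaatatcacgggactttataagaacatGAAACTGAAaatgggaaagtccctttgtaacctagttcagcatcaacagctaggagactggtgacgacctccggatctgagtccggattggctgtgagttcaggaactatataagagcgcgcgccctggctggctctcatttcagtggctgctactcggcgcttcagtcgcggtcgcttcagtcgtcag

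Of 21 complement genes, 12 rose and none fell, and 13 rose without 24 month replicate 3. C4b was at 6.86, 5.003, 12.4 and 6.76 CPM at 2 months and at 124, 165 and 238 CPM at 24 months, and rose 22.8-fold (log2 4.51, SE 0.46, edgeR adjusted p = 0.0014). Reads of C4b can be shared with a near-identical neighbour gene, so its level is uncertain. C1s1, a protease of the first complement component, rose by 1.64. Of 8 Fc receptors 7 rose, among them the inhibitory receptor Fcgr2b by 1.59 and Fcgr3 by 1.09, and 5 did so without replicate 3.

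Genes of the interleukin 1 family and the inflammasome rose in 14 of 20 cases and fell in none (11 rose without 24 month replicate 3). Il33, an alarmin of stromal and endothelial cells, was at 2.62, 3.33, 2.72 and 2.80 CPM at 2 months and at 17.8, 24.6 and 23.8 CPM at 24 months, and Casp4, the caspase that senses bacterial lipid A, at 2.28, 2.11, 2.88 and 2.37 and at 8.58, 10.8 and 14.7 CPM. Both were several times higher in every old ovary. Gsdmd, the pore protein of pyroptosis, rose by 1.00 (SE 0.13).

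Of 28 chemokines 11 rose and none fell, and of 22 chemokine receptors 14 rose and none fell (8 and 13 without 24 month replicate 3). Of all genes tested, 19.2% rose, and 11.9% without that sample. Cxcl13, which draws B cells, was at 0.122 to 0.345 CPM at 2 months and at 0.967 to 4.10 CPM at 24 months, and its receptor Cxcr5 at 0.0311 to 0.0913 and at 0.228 to 0.756 CPM. Both were called. Cxcr6 was at 1.24, 1.46, 1.67 and 1.03 CPM at 2 months and at 5.04, 10.8 and 22.7 CPM at 24 months, and Ccr2, the receptor of recruited monocytes, rose by 2.23 (SE 0.33). Ccl12 rose by 1.45, Ccl22 by 1.76 and Ccl21a by 0.81 (lost without 24 month replicate 2), while the abundant receptor gene Cxcr4 (-0.21) was not called. Tnfsf13b, the B cell survival factor BAFF, was at 1.92 to 2.28 CPM at 2 months and 7.54 to 11.2 CPM at 24 months, and rose by 2.07 (SE 0.21, edgeR adjusted p = 0.0014).

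Mast cell genes were high in 2 of the 3 old ovaries. Cpa3, the mast cell carboxypeptidase, was at 1.03, 0.186, 0.0812 and 0.974 CPM at 2 months and at 38.6, 0.569 and 19.8 CPM at 24 months, and Cma1, a chymase, at 1.17, 0.0311, 0.203 and 0.883 and at 40.3, 0.512 and 16.7 CPM. The second old ovary lay within the young range for both genes, although both were called (log2 5.08, SE 1.22 and 5.05, SE 1.29), as was Mcpt4 (5.58). Neutrophil genes were sparse, with 2 of 5 higher (1 without 24 month replicate 3), against 19.2% (11.9%) of all genes tested. Ltf, lactoferrin, which oviduct and uterine epithelium also make, was at 1.16, 2.13 and 98.9 CPM in the old ovaries and was called only with the third, and Csf3r rose by 1.33, while S100a9 was at no more than 0.858 CPM in the old ovaries and was not called.

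Of 12 surface epithelium genes 9 rose and none fell, and 7 rose without 24 month replicate 3. The list summed to 568, 967 and 1282 CPM in the 24 month replicates, in the same order as the oviduct list. The part of oviduct epithelium in these genes, with or without replicate 3, was not tested. Krt19, a keratin, was at 14.0, 19.7, 14.9 and 12.6 CPM at 2 months and at 56.7, 62.4 and 141 CPM at 24 months. Lgals7, a galectin of epithelia, was at 2.48, 2.98, 2.72 and 1.83 and at 10.9, 11.8 and 10.7 CPM, with the old ovaries nearly equal. Lrrn4 rose by 1.76 (SE 0.32), and Wt1, a factor of mesothelium and granulosa cells, by 1.71 with all samples, a call lost without replicate 3 (adjusted p = 0.059).

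Of 12 oviduct secretory genes 10 rose, and 5 without 24 month replicate 3. Ovgp1, the oviduct-specific glycoprotein, was at 2.31, 2.39, 1.62 and 1.55 CPM at 2 months and at 3.92, 4.84 and 381 CPM at 24 months. Epcam, an adhesion protein of epithelia, was at 8.62, 11.3, 3.74 and 5.11 and at 25.0, 83.0 and 185 CPM. Ovgp1 was thus near the young level in the first 2 old ovaries, whereas Epcam was higher in all 3. Epcam (log2 2.92, edgeR adjusted p = 0.0097), Cldn3 (2.98, 0.015) and Wfdc2 (4.02, 0.0092) rose also without replicate 3, and Ovgp1 did not (1.17, 0.22). Of 19 cilia genes 17 rose, and 3 without replicate 3, when Foxj1 and Spag6l were not called. Foxj1, the regulator of motile cilia, was at 2.07, 1.37, 0 and 0.274 CPM at 2 months and at 0.896, 21.4 and 189.8 CPM at 24 months, with the first old ovary at the young level and the second between. Rsph4a and Hydin, axoneme proteins, were at 0.411, 6.004 and 56.7 and at 4.03, 9.22 and 111 CPM in the old ovaries, against at most 0.342 and 1.72 CPM in the young, and Spag6l at 0.224, 1.96 and 23.8 CPM.

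Of the 133 genes tested in 4 matrix lists, 49 (36.8%) were called, a share near the 35.0% of all genes tested. Without 24 month replicate 3 the share was 24.8%, against 20.6% of all genes. Of 41 collagens, 10 rose and 5 fell (8 and 3 without 24 month replicate 3), with a median of 0.24. Col6a3, a beaded filament collagen, was at 173, 176, 146 and 204 CPM at 2 months and at 245, 459 and 328 CPM at 24 months, and Col8a2 rose by 1.61. Col4a1, of basement membranes, was at 1211, 1128, 1767 and 1154 and at 839, 852 and 344 CPM and fell by 0.96 (SE 0.30), a call lost without 24 month replicate 3 and kept in 5 of 10 fits that left out 1 sample, and Col13a1 fell by 1.83. Of 23 proteoglycans and matricellular proteins 6 rose and 2 fell (5 and 1 without 24 month replicate 3). Lum rose by 1.28 and Sparcl1 by 1.31, while Sparc, made by cells that remodel basement membrane, was at 3596, 3184, 4120.0 and 2656 CPM at 2 months and at 1445, 1869 and 804 CPM at 24 months and fell by 1.30 (SE 0.29, edgeR adjusted p = 0.010). Dcn and Sparc thus moved in opposite directions, each without overlap of the ages, which for Dcn was a condition of the filter above.

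Of 38 matrix proteases and inhibitors, 10 rose and 4 fell (6 and 2 without 24 month replicate 3). Mmp15 rose by 0.94 and Adamts8 by 2.45, whereas Adamts5, which cuts versican, fell by 1.36 (SE 0.28). Of 31 laminins and integrins, 9 rose and 3 fell (5 and 3 without 24 month replicate 3). The leukocyte integrin Itgb7 rose by 2.67 and Itga2b, of platelets and mast cells, by 1.88. In TGF-beta signalling 6 of 18 rose and 1 fell (4 and 0 without 24 month replicate 3), a share of calls near that of all genes tested (35.0%). Ltbp2, a microfibril protein, was at 23.2 to 36.6 CPM at 2 months and 73.8 to 183 CPM at 24 months, and the receptors Tgfbr2 and Tgfbr3 rose by 0.78 and 0.92.

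Among the other cells of the stroma, 2 of 13 smooth muscle genes rose with all samples and 5 without 24 month replicate 3. With all samples the share was no more than the 19.2% of all genes tested that rose. Des, the intermediate filament desmin, was at 24.6, 15.1, 20.02 and 21.98 CPM at 2 months and at 133, 160.2 and 21.7 CPM at 24 months, so that replicate 3 stayed at the young level. It was called with all samples and not without 24 month replicate 2 or 2 month replicate 2. Acta2, smooth muscle actin, was at 272 to 471 and at 423, 618 and 274 CPM and was not called. Of 13 vessel genes 2 rose and 1 fell (2 and 0 without 24 month replicate 3), a smaller share of calls than among all genes tested (35.0%). Plvap, of fenestrated endothelium, rose by 2.65 (SE 0.60), Vwf by 1.25, and Vegfa fell by 1.12, a call lost without replicate 3 (adjusted p = 0.14) and kept in 4 of 10 fits that left out 1 sample. Of 9 lymphatic genes 4 rose, as many as without 24 month replicate 3, against 19.2% and 11.9% of all genes tested. Among them were Mmrn1 (0.68) and Reln (0.74), both lost without 2 month replicate 1 or 24 month replicate 2.

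The check for attached fat gave 3 higher and 3 lower of 9 genes, with a median of 1.23 (4 and 2 without 24 month replicate 3, median 1.38). Fabp4, given above with the macrophages, rose by 3.69. The other 2 that rose are named after their values were seen. Adipoq, the fat cell hormone adiponectin, was at no more than 0.0812 CPM at 2 months and at 1.75, 0.341 and 0.116 CPM at 24 months (called in 3 of 10 fits that left out 1 sample), and Cidea, a lipid droplet protein, was at no more than 0.310 and at 0.448, 0.683 and 8.35 CPM. Plin4, another lipid droplet protein, fell by 3.12 and Pparg, which granulosa cells also express, by 1.08. The part of fat in the other results was not tested, and the whole list summed to 553 to 1063 CPM at 2 months and to 166 to 322 CPM at 24 months. Of 13 nerve and glia genes 5 rose and 3 fell (4 and 2 without 24 month replicate 3). Ngfr, the neurotrophin receptor, was at 16.2, 17.8, 7.39 and 14.1 CPM at 2 months and at 43.1, 94.3 and 49.5 CPM at 24 months, while Uchl1, a deubiquitinase abundant in oocytes and neurons, fell by 2.13 (SE 0.28, edgeR adjusted p = 0.0021). Sox9, the factor of testicular Sertoli cells that oviduct and other epithelia also express, was at 3.00, 2.64, 2.19 and 2.83 CPM at 2 months and at 5.19, 15.9 and 40.4 CPM at 24 months, highest in the third old ovary. None of 5 red cell genes was called with either set of samples, and their sum was 42.5, 44.9, 353 and 20.2 CPM at 2 months, highest in replicate 3, and 98.5, 20.3 and 30.6 CPM at 24 months.

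Of 77 nuclear genes of oxidative phosphorylation, 61 fell and 1 rose, with a median of -0.55, 36 fell without 24 month replicate 3 and 44 with library totals. Atp5b, the catalytic subunit of ATP synthase, was at 1204, 1136, 1187 and 1169 CPM at 2 months and at 866, 784 and 642 CPM at 24 months, and Ndufa12, of complex I, at 64.9, 59.5, 63.6 and 55.9 and at 39.8, 35.6 and 31.5 CPM. The ages did not overlap in either gene, with replicate 3 lowest, and the falls were 0.62 (SE 0.14) and 0.77 (SE 0.12). None of the 7 tested genes encoded by mitochondrial DNA was called: mt-Co1, of cytochrome oxidase, was at 10943 to 14604 CPM at 2 months and 9298 to 10111 CPM at 24 months (log2 -0.41, adjusted p = 0.17).

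Of 34 constitutive proteasome subunits 30 fell and none rose (19 without 24 month replicate 3, and 19 with library totals), in contrast to the immunoproteasome subunits Psmb8 and Psmb9. Psma2 was at 181, 176, 158 and 166 CPM at 2 months and at 110.4, 90.96 and 83.6 CPM at 24 months and fell by 0.84 (SE 0.15, edgeR adjusted p = 0.0042), and Psmd2 by 0.56. Of 88 cytosolic ribosomal proteins 17 fell and none rose, 5 fell without 24 month replicate 3, and 5 fell and 1 rose with library totals, so that most were not called in any of these fits. The 17 were a share near the 15.8% of all genes tested that fell. Rpl28 fell by 0.58 and Rpl23a by 0.99, and Rpl39l, a germ cell copy, was at 0.447 to 0.622 CPM at 2 months and at no more than 0.0746 CPM at 24 months.

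Of 30 antioxidant and glutathione enzymes 5 rose and 11 fell (6 and 6 without 24 month replicate 3). Among all genes tested 19.2% rose, near the share of this list, and 15.8% fell (11.9% and 8.69% without that sample). The glutathione transferase Gstm2 rose by 1.23 and Nqo1, a quinone reductase, by 1.66 (SE 0.22), while Gpx3, the most abundant, was at 3324, 1072, 3936 and 1389.7 CPM at 2 months and at 1346, 364 and 1432 CPM at 24 months and was not called. Of 18 genes of NAD metabolism 6 rose and 1 fell (3 and 1 without 24 month replicate 3), a share of calls near that of all genes tested (35.0%). Parp14 rose by 1.26, Naprt by 0.69, and Nadk, which makes NADP, fell by 0.99 (SE 0.21).

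Of 13 heat shock and immediate early genes 5 fell and 1 rose (3 and 1 without 24 month replicate 3). Among all genes tested 15.8% fell and 19.2% rose (8.69% and 11.9% without that sample). Hsp90aa1 was at 676, 461, 446 and 544 CPM at 2 months and at 237, 145 and 201 CPM at 24 months, and Hsph1 at 495, 306, 364 and 476 and at 137, 51.7 and 97.6 CPM. Both were lower in each old ovary than in any young one, and Dnajb1, their co-chaperone, fell by 1.65 (SE 0.19, edgeR adjusted p = 0.0018). Whether the tissue was collected alike at both ages is not stated in the labels, and its part in these values was not tested.

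The most extreme falls outside the groups above, among genes of established symbol and at least 5 CPM whose ages did not overlap, were those of Dynap, at 9.13 to 13.2 CPM at 2 months and 0.0285 to 0.320 CPM at 24 months, and of Gal3st2c, a sulfotransferase, at 61.6 to 151 and 0.843 to 3.22 CPM (log2 -6.25, SE 1.01 and -5.53, SE 1.21).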

How the data were processed

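Poly(A) RNA of mouse ovaries was sequenced after Trizol and column extraction with DNase treatment and a stranded mRNA library kit, per the labels' protocols. The authors deposited raw gene counts, which the submitters' processing notes place after FastQC, cutadapt, STAR and HTSeq on mm10. Their versions, the annotation and whether counting used strand were not given in the sources used here, and reads of overlapping genes on opposite strands may not be separated.

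Groups came from the age in each sample title. The table held 54232 genes, of which 20331 passed edgeR's filterByExpr. The fit used edgeR 4.0.16 (R 4.3.3), with TMM factors and robust quasi-likelihood F-tests in 1 model of all 3 ages. In it the 18 month replicates 3 and 4, whose counts agree within sampling noise, were summed to 1 sample. The contrast was 24 month against 2 month, with Benjamini-Hochberg adjustment over all genes at 0.05. The fit left 7 residual degrees of freedom, at a common biological coefficient of variation of 0.32. Standard errors are the size of the log2 fold change over the square root of F. Library totals of the 7 samples lay between 26061630 and 33407509, and CPM has counting error as well as spread between samples. Positions are those of the deposited table. The fit was tested on simulated data.

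Members and gene lists were chosen with earlier results of these data known. Named genes were the 12 rises and 12 falls of smallest adjusted p (at least 1 on the log2 scale, 5 CPM and no overlap of the ages), the 10 largest gains and losses in CPM, the 3 largest log2 changes each way under the same filter, 3 members of smallest adjusted p and the most abundant member of each list, and any member of 7 lists (macrophage, T cell, immunoglobulin constant, maternal effect, granulosa, theca and sterol). The first 3 of these selections left out names of clones and predicted genes, mitochondrial genes and pseudogenes. Alternatives were other scalings and filters, a replicate block, other sample sets, each sample left out, DESeq2 1.42.0 and limma-voom 3.58.1. Promoter windows came from RefSeq tables. The 18 month group is not described here, and the values of some genes of these lists are not reported here.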

Additional observations from a re-analysis of the deposited data

Results flagged for a closer look

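Dixon's test was run on the 2 month samples of the 299 named genes, where these were not all equal. A 2 month sample stood far from the other 3 in 19 cases. The test flags about 5% of groups by chance, and 19 of 299 is near that share. The cases are listed by sample, and whether they share a cause was not tested. Among these cases, the third young ovary was the high one for Cd74 at 257 CPM, H2-D1 at 76.2 CPM, H2-Q7 at 1.26 CPM, H2-Ea-ps at 29.9 CPM, Rsad2 at 4.02 CPM, Cd163 at 4.06 CPM, Ighm at 8.49 CPM and Ighd at 0.934 CPM. It also had the highest young levels of Col4a1, at 1767 CPM, Vegfa, at 572 CPM, and Hsd3b1, at 14583 CPM, and the lowest of Lmnb1, at 50.2 CPM. The second young ovary was the high one for Carhsp1, at 306 CPM, Dynap, at 13.2 CPM, Lag3, at 3.26 CPM, and Agt, at 145 CPM. The fourth young ovary was the high one for Lyz2, at 162 CPM, and Lck, at 4.87 CPM, and the low one for Ccl21a, at 51.2 CPM. Groups of 3 old ovaries cannot be tested in this way.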

How the results depend on the processing

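The number of genes called was 7120, and it lay between 5726 and 9757 under the other scalings, filters, sample sets and tools that kept all 7 samples. With library totals as the scaling, 1869 genes were lower and 73.0% of the calls were higher. Leaving out 1 sample gave 4283 to 7467 calls, 2395 to 4238 higher and 1808 to 3229 lower, except for 3274 lower without the summed 18 month replicates 3 and 4. With only the 2 and 24 month samples and no 24 month replicate 3, a setting chosen after seeing the data, there were 4360 calls, 2536 higher and 1824 lower. No sign was seen that the replicate numbers pair the samples: deviations of same-numbered samples had correlations of -0.031, -0.070 and -0.113. Those of samples with different numbers lay between -0.099 and 0.149. So few samples cannot exclude a pairing. A fit with a replicate block on replicates 1 to 3 of both ages called 1987 genes (1139 higher and 848 lower), and the same 6 samples without a block, also added after seeing the data, 4681 (2468 higher). Of 299 named genes, 256 kept their direction and side of the threshold without 24 month replicate 3, 39 lost their call and 2 gained one. No named gene that was called in the comparison changed direction under these alternatives. Uncalled genes did. With 1 sample left out, log2 values lay between -0.18 (without 24 month replicate 1) and 1.58 for Cyp17a1, between -1.05 and 0.035 (without 24 month replicate 2) for Fst, between -0.14 (without 24 month replicate 2) and 0.46 for Acta2, between -0.062 (without 24 month replicate 1) and 0.39 for Kit, between -0.36 (without 24 month replicate 1) and 0.77 for Inhba, between -0.20 and 0.072 (without 2 month replicate 2) for Foxl2, between -2.26 and 7.39 (without 2 month replicate 3) for H2-Ea-ps, and, for H2-T22 and H2-Eb1, between -0.69 and 0.37 and between -0.47 and 0.55 (highest without 24 month replicate 3). With limma-voom, Cyp19a1 was at -2.06, Inhba at -2.43, H2-Ea-ps at 4.85 and H2-Eb1 at 0.19. With the replicate block, Inhba was at -0.46, Foxl2 at 0.0098 and H2-Ea-ps at 2.12, and with library totals Foxl2 was at 0.12, H2-T22 at 0.031 and H2-Eb1 at 0.18. H2-Eb1 was at 0.029 with the stricter filter and 0.0040 with only the 2 and 24 month samples, and without 24 month replicate 3 as well H2-T22 was at 0.36 and H2-Eb1 at 0.54. The cause of these moves was not tested. Levels of a few hundredths of a CPM rest on single counts.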

Other observations

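The counts of mitochondrial transcripts were uneven in a way unrelated to age. Of the 13 protein genes of the mitochondrial genome, mt-Co1, mt-Nd1 and mt-Cytb had at least 270925, 135821 and 135322 counts in each of the 7 samples, while mt-Co2, mt-Co3, mt-Atp6 and mt-Nd3 had no more than 3, 2, 8 and 5 counts, and mt-Atp8 and mt-Nd4l had 0 in every sample. Levels of those 6 genes can therefore not be read from these counts.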
